A study of Brassica oleracea with 12 samples.

Results

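Leaf age at a like color was examined in kale by setting the red center of the older leaf against the young leaf that is still red throughout. The comparison takes 6 of the 12 libraries of the series: 3 of S1, the whole leaf with its veins removed while it is red, and 3 of S3_C, the red center of the leaf at S3, when its margin is green. All come from 1 ornamental cultivar of Brassica oleracea var. acephala, JC007-2B, with no treatment named. The other 6 libraries, of the whole leaf at S2, when the center is red and the margins green, and of the green margin at S3 (S3_S), entered the test for its estimate of spread. Of 45714 entries in the table, 27272 reached 1 FPKM in at least 3 of the 12 libraries and were tested on log2(FPKM + 1). FPKM is the number of fragments per kilobase of transcript, scaled to the fragments mapped in a library, so values are set per length.

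The 2 groups differ in more than age. S1 is a whole leaf and S3_C is a piece of one, so leaf age and position on the leaf cannot be told apart. The labels say that veins were taken out at S1 and do not say so for S3_C, give no leaf age in days, and name no plant for any library. Whether replicates are separate plants is thus not known, and the p-values measure only how far these samples spread, which may be technical. In whole tissue, fewer cells of a type and less RNA per cell cannot be told apart.

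A leaf begins as dividing cells that make ribosomes, histones and new walls, then its cells enlarge, its surface is sealed by a cuticle of wax and cutin, and its chloroplasts take over carbon fixation. In an ageing leaf, chlorophyll is dismantled and nitrogen is moved out through autophagy, proteolysis and glutamine synthesis. Red color in kale comes from anthocyanins, made by the flavonoid pathway and kept in the vacuole.

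S1 replicate 1 stood apart from its group. Across the tested genes, which are not independent of each other, it correlated with S1 replicates 2 and 3 at r = 0.749 and 0.761, and with the 3 S3_C libraries at 0.879 to 0.927. S1 replicates 2 and 3 correlated with each other at 0.935, the S3_C libraries among themselves at 0.86 to 0.891. The 6 libraries were alike in summed FPKM (426981 to 470320), in the share of entries listed at 0 (19.75% to 23.15%) and in a depth inferred from the lowest values (0.818 to 1.0 relative to S1 replicate 1). Reads of near-identical family members, such as histones, ribosomal proteins and antenna proteins, could be split between entries, so single entries of these families are uncertain. Where 2 sets of values follow each other, the values of S1 replicates 1, 2 and 3 stand against those of S3_C replicates 1, 2 and 3, in FPKM. Class counts and medians are given with all libraries and with S1 replicate 1 left out of the fit, which is called the reduced fit, and named genes by the values of all 6 libraries. That library was left out because of its values, and the reduced fit sets 2 S1 libraries against 3 of S3_C. The labels do not settle whether S1 replicate 1 is an older leaf than the others or carries another sample's label, which was not tested, and the p-values of the reduced fit apply only if the library does not stand for the red young leaf. The green margin library S3_S replicate 3, which enters through the spread alone, also stood apart from its group in some genes described here: it had 228 FPKM of PRXR1 and 225 of CER1, where S3_S replicates 1 and 2 had 15.9 and 24.8, and 41.5 and 36.4.

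Set against the young red leaf, the red center had lower medians for flavonoid, fatty acid, cuticle, ribosome, DNA replication, histone and kinesin genes and higher medians for antenna, photosystem, Calvin cycle, chlorophyll breakdown and senescence genes. Over all genes and all libraries, limma called 0 genes higher and 2 lower in the red center at an adjusted p under 0.05 (0% and 0.00733% of tested genes). The called entries, Bo8g082410 and Bo9g120520, were listed at 0 in every S3_C, S2 and S3_S library and have no product description. They reached the filter through S1 alone, and groups listed at 0 throughout add no spread to their test, which makes their p-values small. Bo8g082410 had 8.13, 18.7 and 22.1 FPKM in S1 replicates 1, 2 and 3 (adjusted p = 0.00182) and Bo9g120520 had 29.2, 10.1 and 79.2 (adjusted p = 0.0243). At an unadjusted p under 0.05, 1668 genes were higher (6.12%) and 4302 lower (15.8%). The smallest adjusted p of a gene with a higher mean in S3_C was 0.0921, and that of any member of a gene class described here was 0.213. In the reduced fit, 1747 genes rose (6.41%) and 4540 fell (16.6%). These counts rest on the 2 S1 libraries that remain: with S1 replicate 2 also left out they were 139 and 480, and with S1 replicate 3 also left out 112 and 249. Leaving out S3_C replicate 2 as well gave 942 and 2248, and S3_C replicate 1 gave 2713 lower. The values of S1 and S3_C did not overlap over the 6 libraries in 1441 genes with the higher values in S3_C (5.28%) and in 2767 with the lower (10.1%). The median log2 difference of all genes was -0.18, and -0.22 in the reduced fit, so class medians are read beside it. Scaling by median of ratios moved these medians to 0.01 and 0.03 and the split of calls in the reduced fit to 2491 higher and 3370 lower.

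**Figure D1:**
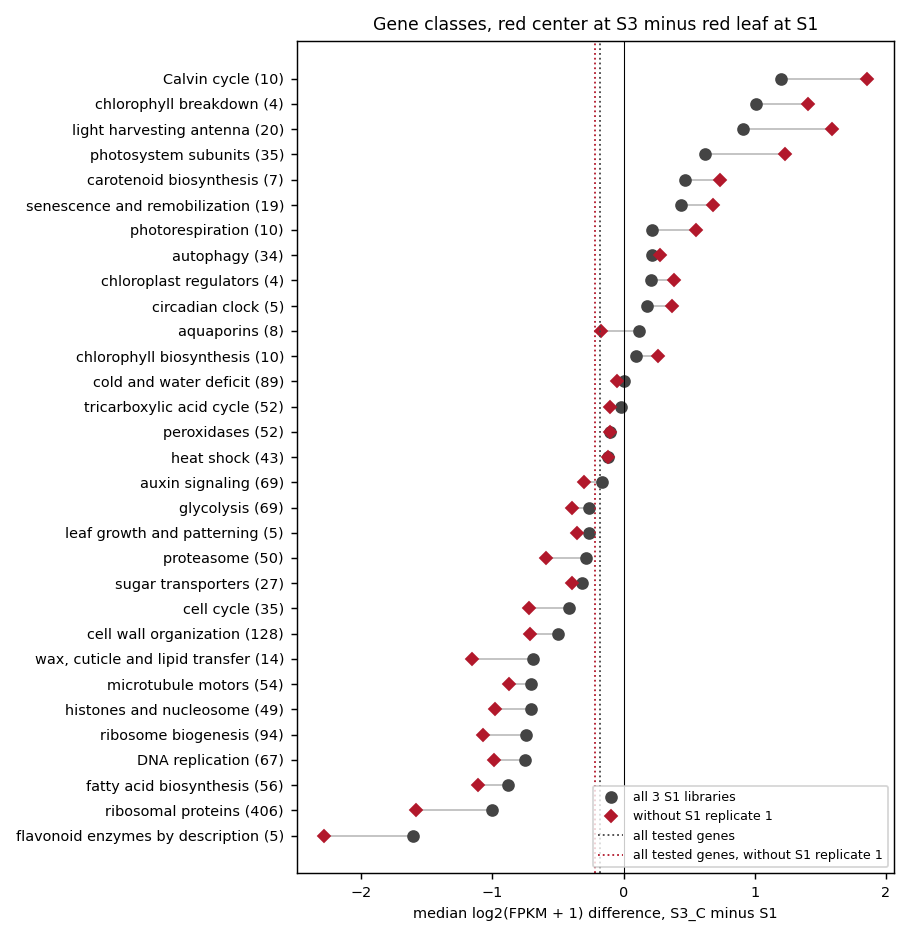
Median log2(FPKM + 1) difference, S3_C minus S1, of each gene class with at least 4 tested members (number tested in brackets), with all libraries (circles) and without S1 replicate 1 (diamonds); dotted lines mark the medians of all tested genes. Ribosomal proteins (-1.0) and fatty acid biosynthesis (-0.88) lie to the left and the Calvin cycle (1.2) and antenna (0.91) to the right, and leaving out S1 replicate 1 moved each of these 4 further from 0.

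Genes of the leaf surface and of fatty acid synthesis had lower medians in the red center. S1 replicate 1 lay within the range of S3_C in 24 of 56 fatty acid genes (42.9%, beside 64.7% of all genes). Of 56 tested genes of fatty acid biosynthesis, the groups did not overlap in 20 with the lower values in S3_C (35.7%, beside 10.1% of all genes) and in 2 with the higher (3.57%, beside 5.28%). Their median log2 difference was -0.88, and in the reduced fit -1.11 with 24 falling (42.9%, beside 16.6%) and 0 rising (0%, beside 6.41%). Of 14 wax, cuticle and lipid transfer genes, 6 had no overlap and were lower in S3_C (42.9%, beside 10.1%), 6 fell in the reduced fit (42.9%, beside 16.6%) and the median was -0.69 (reduced fit -1.16). With median-of-ratios scaling the medians of the 2 classes were -0.66 and -0.51. No member was called with all libraries.

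CER1, an enzyme that makes the alkanes of leaf wax in Arabidopsis, had 107, 223 and 186 FPKM in S1 and 31.3, 5.37 and 47.8 in S3_C. Every S1 library lay above every S3_C library, with a log2 difference of -2.94 (SE 0.91) that did not pass with all libraries (limma adjusted p = 0.213) and was -3.25 (SE 1.03) in the reduced fit (adjusted p = 0.0467). LACS2, an acyl-CoA synthetase needed for cutin in Arabidopsis, had 8.05, 16.4 and 17.41 FPKM in S1 and 3.42, 1.21 and 4.05 in S3_C, also without overlap. Its log2 difference was -1.96 with an SE of 0.65 (limma adjusted p = 0.213, reduced fit 0.0461). The exporter of wax across the plasma membrane, CER5, had 92.6, 78.9 and 64.1 FPKM in S1 and 27.8, 14.0 and 56.0 in S3_C. Its groups did not overlap, but S3_C replicate 3 lay close to S1 replicate 3, and it did not pass in either fit (limma adjusted p = 0.219 and 0.198). A GDSL-type lipase entry of the same class, Bo8g030940, behaved otherwise: it had 0.126, 28.5 and 24.3 FPKM in S1 and 0.0974, 0.251 and 0.340 in S3_C, so that S1 replicate 1 lay within the S3_C range.

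Several enzymes that build the fatty acid chain were lower in S3_C without overlap. MOD1, the enoyl-acyl carrier protein reductase of the plastid, had 24.3, 40.8 and 43.6 FPKM in S1 and 11.8, 4.95 and 20.3 in S3_C. A dehydratase of very-long-chain elongation, Bo9g172020, had 18.6, 54.7 and 51.9 against 13.5, 4.69 and 8.18. The acyl-acyl carrier protein hydrolase Bo8g055880, which by its description releases finished chains, had 11.2, 33.4 and 36.0 against 5.40, 4.77 and 6.93. All 3 were without overlap, with log2 differences of -1.62 (SE 0.46), -2.08 (SE 0.58) and -1.91 (SE 0.65), and all 3 fell in the reduced fit (limma adjusted p = 0.025, 0.0146 and 0.0285). The 3-ketoacyl-CoA synthase Bo8g098830, the condensing step of chain elongation, had nearly equal values in S1, at 12.3, 13.1 and 14.6 FPKM, and lower ones in S3_C, at 2.97, 2.22 and 7.18. Its log2 difference of -1.60 (SE 0.58) was -1.65 (SE 0.67) in the reduced fit, and it did not pass (limma adjusted p = 0.213 and 0.101). The stearoyl-acyl carrier protein desaturase entry Bo9g163320 had 0.440, 7.39 and 10.9 against 0.313, 0.0918 and 0.400 FPKM, with S1 replicate 1 just above the highest S3_C library. Of the 2 members higher in S3_C without overlap, Bo6g094400 had 10.1, 8.93 and 7.90 against 10.3, 10.9 and 14.2 FPKM. The other, the acyl carrier protein Bo4g023900, had 0.0488, 0.717 and 0.585 FPKM in S1 and 9.07, 8.66 and 14.5 in S3_C (log2 difference 3.02, SE 0.94, limma adjusted p = 0.213, reduced fit 0.0888). The class was matched by gene ontology term and also holds lipoxygenases, which oxidize fatty acids: Bo1g105160 had 1.304, 9.23 and 12.0 against 0.341, 0.594 and 0.979 FPKM, while the more abundant Bo6g079880 had 73.0, 499 and 167 against 44.2, 478 and 9.04 and overlapped.

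Genes of the flavonoid pathway, which makes the red pigment, had lower means in the red center, and both groups are red. TT7, the flavonoid 3'-hydroxylase, had 2.37, 47.0 and 20.9 FPKM in S1 and 1.46, 0.962 and 1.09 in S3_C. The chalcone isomerase family entry Bo9g177250 had 1.197, 14.3 and 6.48 against 0.881, 1.12 and 0.975, and TT8, the bHLH regulator of late pathway genes in Arabidopsis, 3.66, 25.9 and 19.0 against 0.774, 0.900 and 2.35. In each of these 3 genes every S1 library lay above every S3_C library, but S1 replicate 1 was far nearer to S3_C than to the rest of S1. Log2 differences were -2.82 with an SE of 0.95, -1.67 with an SE of 0.59 and -2.60 with an SE of 0.86 (limma adjusted p = 0.213 for each), and all 3 fell in the reduced fit (adjusted p = 0.0108, 0.00727 and 0.0208). The 3 genes were 2 of 2 tested early flavonoid genes and 1 of 2 tested regulators. These shares of 100% and 50% stand beside 16.6% of all genes falling and 10.1% lower without overlap. They cover a small part of the pathway: the lists named 6 early genes and 16 regulators, to which 3 and 2 entries were matched. The other tested regulator, the COP1-type ubiquitin ligase Bo4g045420, a repressor of light responses in Arabidopsis, had 11.9, 9.14 and 8.09 against 11.4, 12.3 and 10.1 FPKM, overlapped and did not pass.

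Further entries that carry a flavonoid enzyme in their description were gathered after values had been seen. Of 5 tested, counting Bo9g177250 again, 5 had lower means in S3_C, with a median of -1.61 (reduced fit -2.28). In the reduced fit 3 fell (60%, beside 16.6% of all genes). Over the 6 libraries 1 was lower without overlap (20%, beside 10.1%). The isomerase family entry Bo8g088480 had 3.69, 22.2 and 14.8 FPKM in S1 and 2.25, 2.71 and 4.06 in S3_C, and the flavonol synthase FLS2 2.56, 14.9 and 9.82 against 2.99, 2.58 and 5.72. S1 replicate 1 lay within the S3_C range for the first and just below it for FLS2, and both fell in the reduced fit (limma adjusted p = 0.0119 and 0.0292). Upstream, 4CL3, the 4-coumarate:CoA ligase that serves flavonoids in Arabidopsis, had 0.118, 9.53 and 5.74 against 0.0762, 0.0243 and 0.0236 FPKM, and its paralog 4CL1, tied to lignin there, 2.25, 6.16 and 12.0 against 2.57, 1.94 and 3.15. Both fell in the reduced fit (limma adjusted p = 0.00863 and 0.0156), and 4CL3 alone of the pair had no overlap. No entry was matched to the late anthocyanin enzymes, whose levels were not analysed here.

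**Figure D2:**
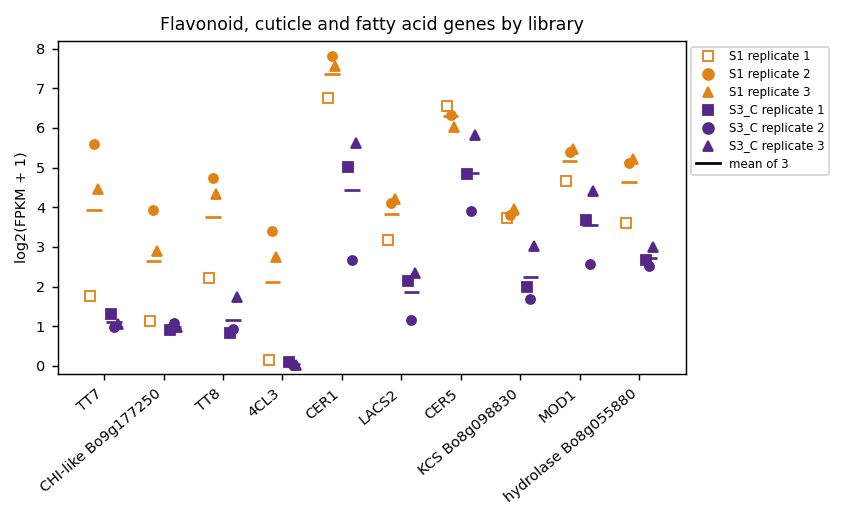
Log2(FPKM + 1) of flavonoid, cuticle and fatty acid genes in each S1 library (orange; open square, replicate 1) and S3_C library (purple), with the mean of 3 as a bar. S1 replicate 1 lies near S3_C for TT7 (2.37 FPKM beside 0.962 to 1.46) and well above it for CER1 (107 beside 5.37 to 47.8).

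Genes of cell division had lower means in the red center as classes. Of 67 tested DNA replication genes, 59 had a lower mean, with a median of -0.75, and 35 fell (52.2%, beside 16.6% of all genes) and 1 rose (1.49%, beside 6.41%) in the reduced fit (median -0.99). Of 35 cell cycle genes 27 had a lower mean, and 12 fell (34.3%) and 1 rose (2.86%) in the reduced fit (median -0.41, reduced fit -0.72). Of 49 histone and nucleosome genes 43 had a lower mean, and 19 fell (38.8%) and 0 rose in the reduced fit (median -0.71, reduced fit -0.98). With median-of-ratios scaling these medians were -0.56, -0.20 and -0.50 with all libraries. The groups did not overlap in 7, 7 and 4 members with the lower values in S3_C (10.4%, 20% and 8.16%, beside 10.1% of all genes), and S1 replicate 1 lay within the S3_C range for 42, 24 and 35 members of the 3 classes (62.7%, 68.6% and 71.4%, beside 64.7% of all genes).

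PCNA1, the sliding clamp of DNA replication, had 0.164, 9.10 and 12.2 FPKM in S1 and 0.223, 0.210 and 0.401 in S3_C. S1 replicate 1 lay below all 3 S3_C libraries and S1 replicates 2 and 3 lay far above them. The log2 difference of -2.07 (SE 0.84) did not pass with all libraries (limma adjusted p = 0.215) and was -3.18 (SE 0.58) in the reduced fit (adjusted p = 0.00827). RPA2, a subunit of the single-strand binding complex, had 0.341, 20.4 and 22.7 against 0.895, 0.808 and 1.07 FPKM. MCM4, of the replicative helicase, had 0.897, 7.47 and 9.21 against 1.43, 0.900 and 1.53. The same library stood with S3_C for FAS1 and FAS2, subunits of the assembly factor that loads histones onto new DNA: FAS1 had 0.0254, 5.62 and 5.87 against 0.483, 0.0928 and 0.181, and FAS2 0.371, 8.64 and 9.31 against 0.704, 0.127 and 0.709. The histone H2A variant gene HTA11 had 0.271, 11.7 and 15.7 against 0.520, 0.422 and 0.521 FPKM. All 5 fell in the reduced fit (limma adjusted p between 0.0057 and 0.0166).

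B-type cyclin-dependent kinases, which act at the entry into mitosis, had their highest values of the 6 libraries in S1 replicates 2 and 3. S3_S replicate 3, outside this comparison, had 3.04 FPKM of CDC2B and 2.74 and 1.39 of the entries described as B2;1 and B2;2. CDC2B had 0.164, 6.52 and 11.1 FPKM in S1 and 0.223, 0.123 and 0.233 in S3_C, and fell in the reduced fit (limma adjusted p = 0.00525). An entry named CDKB2 and described as B2;1 had 0.660, 5.28 and 7.58 against 0.622, 0.368 and 0.540 FPKM, without overlap, and the entry described as B2;2 had 0.0429, 4.54 and 8.78 against 0.0237, 0.289 and 0.0509. Not every replication gene followed: Bo4g188770, matched by its ontology term, had 8.16, 16.9 and 21.5 against 6.13, 5.14 and 6.61 FPKM, with S1 replicate 1 above S3_C (log2 difference -1.16, SE 0.30, reduced fit adjusted p = 0.00533), and Bo2g092560 had 5.86, 5.81 and 6.06 against 6.12, 7.27 and 6.46. The histone H2A entry Bo9g140890 was listed at 0 in all 3 S3_C libraries and had 2.19, 9.87 and 7.39 FPKM in S1. The abundant histone H3.3 entry Bo1g003080, of the variant used outside replication, had 608, 706 and 658 against 438, 376 and 697 FPKM and overlapped.

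Kinesins include the motors of the spindle and of the division plate. The class was matched by motor terms and by description, so not every member need act in division. Beside the 3 classes above, it had the most genes whose groups were apart. Of 54 tested microtubule motor genes, 48 had a lower mean in S3_C, 14 were lower without overlap (25.9%, beside 10.1%) and 2 higher (3.70%, beside 5.28%). The median was -0.71 (-0.52 with median-of-ratios scaling), and in the reduced fit -0.88 with 22 falling (40.7%, beside 16.6%) and 2 rising (3.70%, beside 6.41%). The kinesin entry Bo1g124780 had 7.13, 25.2 and 23.9 FPKM in S1 and 6.14, 3.24 and 6.32 in S3_C (log2 difference -1.53, SE 0.48, limma adjusted p = 0.213, reduced fit 0.00874). PAK, described as armadillo repeat kinesin 3, had 3.06, 7.04 and 7.63 against 1.95, 0.816 and 2.35 FPKM, and ARK2, its paralog, 20.2, 19.7 and 19.2 against 16.0, 14.0 and 16.9. In both genes the groups did not overlap, but the ARK2 difference of -0.32 (SE 0.17) was small and did not pass in either fit. Bo8g081850 was 1 of the 2 that rose in the reduced fit, with 2.02, 0.399 and 0.399 against 2.42, 2.80 and 2.94 FPKM.

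Ribosome genes had lower medians in the red center, with S1 replicate 1 again beside S3_C. Of 406 tested ribosomal protein genes, 375 had a lower mean in S3_C, with a median log2 difference of -1.0 (-0.77 with median-of-ratios scaling). In the reduced fit 295 fell (72.7%, beside 16.6% of all genes) and 4 rose (0.985%, beside 6.41%), with a median of -1.58. The groups were without overlap in 15 members with the lower values in S3_C (3.69%, beside 10.1% of all genes), and S1 replicate 1 lay within the S3_C range for 317 (78.1%, beside 64.7%). The entry Bo1g047930, the most abundant of the class, had 134, 445 and 610.3 FPKM in S1 and 141, 120.2 and 251 in S3_C. S24 of the small subunit, Bo7g093320, had 126, 366 and 456 against 130.1, 109 and 213, and S21, Bo9g010470, 4.298, 9.79 and 14.9 against 2.53, 1.48 and 3.67. Of these 3, only Bo9g010470 had all S1 libraries above S3_C, and all 3 fell in the reduced fit (limma adjusted p = 0.0188, 0.0203 and 0.0106). The entry RPL9 had 203, 176 and 243 against 248, 233 and 192 FPKM, overlapped and did not pass.

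Of 94 ribosome biogenesis genes, 80 had a lower mean, with a median of -0.75 (-0.54 with median-of-ratios scaling), and in the reduced fit 41 fell (43.6%, beside 16.6%) and 4 rose (4.26%, beside 6.41%), with a median of -1.07. The groups were without overlap in 1 member each way (1.06%, beside 10.1% lower and 5.28% higher), and S1 replicate 1 lay within the S3_C range for 91.5% of members. The acidic ribosomal protein entry Bo5g139450 had 28.5, 90.5 and 132 FPKM in S1 and 31.5, 27.6 and 47.4 in S3_C and fell in the reduced fit (limma adjusted p = 0.00732). One of the 4 that rose was CSP41A, a chloroplast RNA-binding protein, with 117, 2.34 and 9.50 against 213, 92.2 and 24.6 FPKM, and another was the elongation factor family entry Bo9g166590, with 130.4, 27.7 and 38.3 against 204, 209 and 88.5. In both, S1 replicate 1 lay within the S3_C range.

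**Figure D3:**
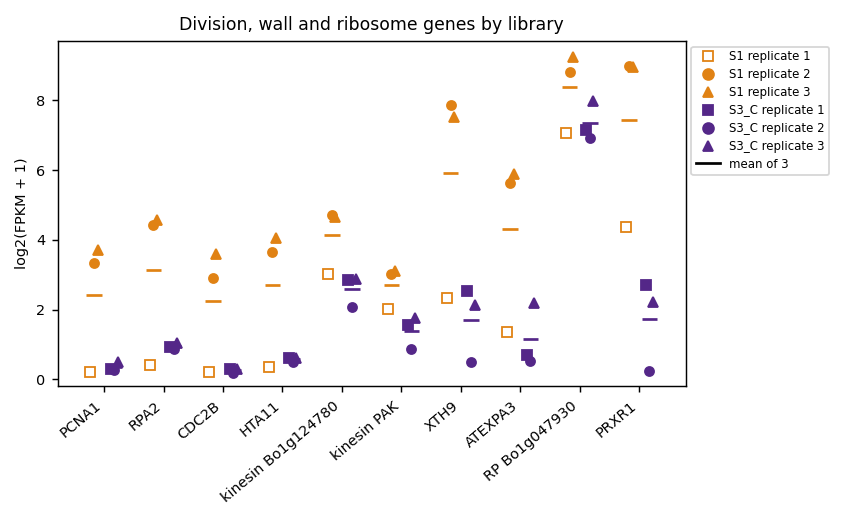
Log2(FPKM + 1) of division, kinesin, wall, ribosome and peroxidase genes in each S1 library (orange, with replicate 1 as an open square) and S3_C library (purple), with the mean of 3 as a bar. For PCNA1 S1 replicate 1 is the lowest of the 6 libraries (0.164 FPKM), while for the kinesin Bo1g124780 and the peroxidase PRXR1 it lies above all of S3_C.

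The cell wall class held lower and higher members, and those without overlap came at shares near those of all genes. Of 128 tested genes 90 had a lower mean in S3_C, 16 were lower without overlap (12.5%, beside 10.1%) and 7 higher (5.47%, beside 5.28%). The median was -0.50 (-0.35 with median-of-ratios scaling), and in the reduced fit -0.71 with 34 falling (26.6%, beside 16.6%) and 7 rising (5.47%, beside 6.41%). Lower in S3_C were enzymes that cut and rejoin xyloglucan, the tether between cellulose fibers, and an expansin, of a protein family that loosens walls for growth. XTH9 had 4.01, 235 and 182 FPKM in S1 and 4.75, 0.400 and 3.37 in S3_C, and the expansin ATEXPA3 1.57, 48.6 and 58.6 against 0.623, 0.450 and 3.59. In both, S1 replicate 1 lay within the S3_C range, and both fell in the reduced fit (limma adjusted p = 0.00896 and 0.00586). The entry Bo9g006410;Bo9g006380, which names 2 genes and carries a xyloglucan transferase term, had 4.50, 208 and 109 against 2.36, 0.222 and 3.88 FPKM, without overlap.

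Other genes of the wall class had the opposite order. Bo6g120910, annotated as a structural constituent of the wall, had 18.2, 0.410 and 1.15 FPKM in S1 and 183, 118 and 325 in S3_C. All 3 S3_C libraries lay above all 3 of S1, with a log2 difference of 5.64 with an SE of 0.99 (limma adjusted p = 0.213) and 6.79 with an SE of 0.81 in the reduced fit (adjusted p = 0.00376). A different xyloglucan transferase, Bo7g114380, had 485, 15.8 and 4.22 against 209, 408 and 919.7 FPKM, and the pectin acetylesterase Bo1g021480 363, 14.4 and 10.5 against 540.0, 527 and 329. Both rose in the reduced fit (adjusted p = 0.00846 and 0.00552), and in both S1 replicate 1 was with S3_C. Another member of the transferase family, Bo7g079960, had 15.8, 5.68 and 7.16 against 36.2, 32.9 and 22.4 FPKM, without overlap (log2 difference 1.67, SE 0.38, reduced fit adjusted p = 0.00625). Genes of one enzyme family thus stood on both sides: XTH9 and EXGT-A1, the latter at 6.42, 41.2 and 49.1 against 1.04, 0.618 and 12.0 FPKM, were lower, and the other pair higher. ER, the receptor kinase ERECTA that sets organ shape in Arabidopsis, had 1.69, 18.0 and 22.0 against 1.04, 0.747 and 3.18 FPKM and fell in the reduced fit (limma adjusted p = 0.00865).

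**Figure D4:**
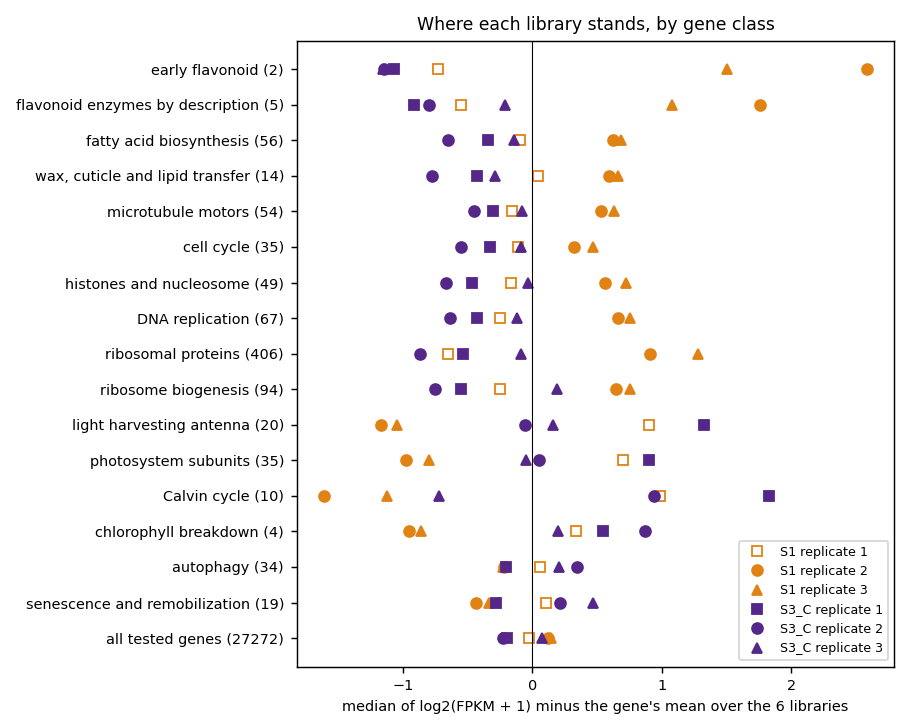
For 16 gene classes and all tested genes, the median over members of log2(FPKM + 1) minus each gene's mean over the 6 libraries, for each S1 library (orange; open square, replicate 1) and S3_C library (purple). S1 replicate 1 lies among the S3_C libraries for ribosomal proteins (-0.65) and DNA replication (-0.25), and to the right of all 3 for wax and cuticle (0.04), fatty acid biosynthesis (-0.09) and early flavonoid genes (-0.73).

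Photosynthesis genes had higher means in the red center, with no gene called and with nearly all groups overlapping. Of 20 tested light-harvesting antenna genes 15 had a higher mean (median 0.91, 1.16 with median-of-ratios scaling), of 35 photosystem subunits 27 (0.62, 0.87) and of 10 Calvin cycle genes 9 (1.2, 1.44). The groups did not overlap in 0, 1 and 0 members with the higher values in S3_C (0%, 2.86% and 0%, beside 5.28% of all genes). They did not overlap in 0, 1 and 0 with the lower (0%, 2.86% and 0%, beside 10.1%). In the reduced fit 11 antenna genes, 12 photosystem subunits and 3 Calvin cycle genes rose (55%, 34.3% and 30%, beside 6.41% of all genes). In the same order 1, 1 and 0 fell (5%, 2.86% and 0%, beside 16.6%), and the medians were 1.59, 1.23 and 1.86. S1 replicate 1 lay within the S3_C range for 80%, 71.4% and 80% of the 3 classes. S1 replicate 1 stood above the mean of S1 replicates 2 and 3 by a median of 2.02, 1.55 and 2.11 on the log2 scale in the 3 classes, and above the mean of S3_C by 0.39, 0.29 and 0.16.

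LHCA4, an antenna protein of photosystem I, had 2047, 262 and 229 FPKM in S1 and 2812, 981 and 1354 in S3_C, and the photosystem I antenna entry Bo4g101180 2347, 261 and 289.9 against 3213, 1074 and 1196. S1 replicate 1 was second of the 6 libraries in both genes, below S3_C replicate 1. The reduced-fit differences were 2.66 with an SE of 0.58 and 2.54 with an SE of 0.58 (limma adjusted p = 0.0128 and 0.0152). PSBQ and PSBO2, extrinsic proteins of the water-splitting side of photosystem II, had 1682, 332 and 312 against 1917, 992 and 913 FPKM and 577, 160.2 and 181 against 710.4, 602 and 429 FPKM in S1 and S3_C. GAPB, the chloroplast glyceraldehyde-3-phosphate dehydrogenase of the Calvin cycle, had 351, 23.5 and 43.8 against 717, 442 and 105, with S3_C replicate 3 the lowest of its group. That library was also lowest for phosphoribulokinase (PRK), with 33.8, 4.61 and 6.02 FPKM in S1 and 77.6, 49.1 and 9.04 in S3_C, which did not pass in the reduced fit (limma adjusted p = 0.0682). The entry for the Rubisco small subunit, Bo4g137150;Bo4g137140;Bo4g137200, which names 3 genes of a near-identical family, had 974, 168 and 312 against 2050.4, 700.2 and 319 FPKM and did not pass either. The antenna entry that fell, Bo8g096010, had 0.618, 4.17 and 7.91 against 0.879, 0 and 0.354 FPKM, and PQL3, a PsbQ-like protein, 1.001, 3.46 and 5.09 against 0.777, 0.307 and 0.331, without overlap.

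Chlorophyll and carotenoid synthesis had smaller median differences. Of 10 chlorophyll synthesis genes, 5 had a higher and 5 a lower mean (median 0.10, reduced fit 0.26). In the reduced fit 1 rose (10%, beside 6.41% of all genes) and 0 fell (0%, beside 16.6%). The member that rose was GUN5, the large subunit of magnesium chelatase, with 38.1, 7.02 and 8.08 FPKM in S1 and 62.6, 32.2 and 19.4 in S3_C (limma adjusted p = 0.0284). Of 7 carotenoid genes 5 had a higher mean (median 0.47, reduced fit 0.74). In the reduced fit 0 rose (0%, beside 6.41%) and 1 fell (14.3%, beside 16.6%). The member that fell was Z-ISO, the zeta-carotene isomerase, with 8.51, 15.6 and 16.4 against 9.72, 8.26 and 11.2 FPKM. The lycopene cyclase Bo5g137670 was uneven in both groups, with 8.39, 3.59 and 0.0881 against 43.7, 0.370 and 18.8. Among 4 regulators of the chloroplast, SIGA, a sigma factor of plastid transcription, had 29.0, 12.96 and 11.8 against 64.4, 29.9 and 22.4 FPKM, and 0 passed in either fit.

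Most tested genes of the chlorophyll breakdown list and of the senescence and remobilization list had higher means in the red center. All 4 tested chlorophyll breakdown genes did (median 1.01, 1.22 with median-of-ratios scaling and 1.4 in the reduced fit). Of them 2 rose in the reduced fit (50%, beside 6.41% of all genes) and 1 was higher without overlap (25%, beside 5.28%). The list named 13 Arabidopsis genes, to which 6 entries were matched. ACD1, which cleaves the ring of pheophorbide a, had 57.0, 10.0 and 15.7 FPKM in S1 and 69.3, 132 and 62.7 in S3_C, without overlap but with S1 replicate 1 close below S3_C (log2 difference 1.93, SE 0.68, limma adjusted p = 0.213, reduced fit 0.0169). TIC55-II, a related oxygenase of the chloroplast envelope, had 8.71, 2.011 and 1.45 against 12.1, 11.3 and 6.75, overlapped and rose in the reduced fit (adjusted p = 0.0131). NOL, a chlorophyll b reductase, had 13.4, 7.89 and 9.94 against 17.2, 24.3 and 10.5 FPKM and did not pass. Below the filter, the homolog of the stay-green gene SGR2, Bo3g045460, had 22.5 FPKM in S3_C replicate 2 and at most 0.536 in the other 5 libraries, and the chlorophyllase ATCLH1 had 15.3 FPKM in S1 replicate 2, 2.38 in S1 replicate 3 and at most 0.666 in the other 4.

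Of 19 tested senescence and remobilization genes 12 had a higher mean (median 0.44, and 0.63 with median-of-ratios scaling), 3 were higher without overlap (15.8%, beside 5.28%) and 1 lower (5.26%, beside 10.1%), and in the reduced fit 4 rose (21.1%, beside 6.41%) and 0 fell (median 0.68). ATGSR1, a cytosolic glutamine synthetase that loads nitrogen for export, had 15.7, 1.96 and 1.41 FPKM in S1 and 47.6, 66.9 and 31.7 in S3_C. Its groups did not overlap, and S1 replicate 1 lay between them (log2 difference 3.27, SE 0.89, limma adjusted p = 0.213, reduced fit 4.16, SE 0.83 with adjusted p = 0.0102). GAMMA-VPE, a vacuolar protease, had 13.8, 3.82 and 4.05 against 36.2, 119 and 29.3, in the same order (reduced fit adjusted p = 0.0363). SEN1, a gene induced by dark and ageing in Arabidopsis, had 257, 0.172 and 0.149 FPKM in S1 and 55.9, 543 and 145 in S3_C. S1 replicate 1 was second only to S3_C replicate 2, and the reduced-fit difference was 7.15 with an SE of 1.02 (adjusted p = 0.00527). ALD1 and HAI1 had a similar gap within S1, at 12.8, 0.0996 and 0.0683 and 8.31, 0.486 and 0.649 FPKM, beside 0.742, 5.91 and 19.8 and 0.974, 18.8 and 4.13 in S3_C, and did not pass. COR78, a cold and drought gene on the same list, had 49.0, 111 and 74.6 against 438, 69.6 and 341 FPKM and overlapped.

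Autophagy genes had a smaller median difference in the same direction. Of 34 tested, 24 had a higher mean (median 0.21, and 0.44 with median-of-ratios scaling), 4 were higher without overlap (11.8%, beside 5.28%), and 3 rose (8.82%, beside 6.41%) and 0 fell in the reduced fit (median 0.28). The entry Bo7g104500, described as an autophagy-related protein, had 28.8, 4.84 and 3.91 FPKM in S1 and 32.8, 75.7 and 35.2 in S3_C, without overlap (log2 difference 2.26, SE 0.71, limma adjusted p = 0.213, reduced fit 0.00862). Bo2g104590, with the same description, had 104, 19.2 and 33.3 against 84.1, 184 and 110.2, and APG12, the ubiquitin-like conjugation factor, 27.4, 9.75 and 8.35 against 26.8, 75.4 and 28.5. The abundant member Bo8g044730 had 104, 76.9 and 73.7 against 99.0, 171 and 104 FPKM and did not pass.

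SUS3, a sucrose synthase, had 6.05, 0.597 and 0.318 FPKM in S1 and 11.1, 34.6 and 16.6 in S3_C, without overlap (log2 difference 3.0, SE 0.94, limma adjusted p = 0.213, reduced fit 0.0214). Of 27 sugar transporters 9 had a higher mean and 18 a lower (median -0.32, and -0.10 with median-of-ratios scaling). In the reduced fit the median was -0.39, and 2 rose (7.41%, beside 6.41%) and 5 fell (18.5%, beside 16.6%). The 2 that rose carry SWEET or nodulin names: SWEET2 had 4.50, 0.558 and 0.228 against 5.28, 5.80 and 3.25 FPKM and Bo1g078350 10.4, 0.450 and 0.315 against 4.66, 4.02 and 5.21. Another SWEET entry, Bo7g097500, had 26.8, 17.1 and 16.6 against 13.3, 6.33 and 12.9, lower in S3_C without overlap, and did not pass in either fit.

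**Figure D5:**
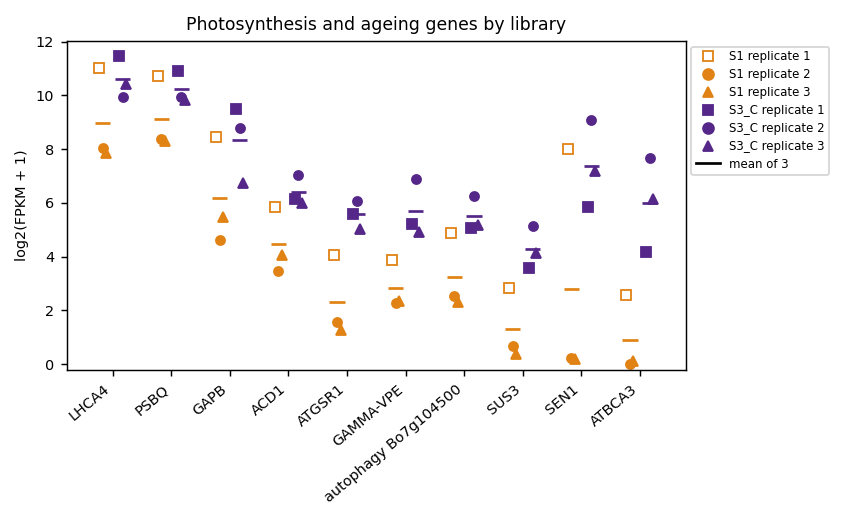
Log2(FPKM + 1) of photosynthesis and ageing genes in each S1 library (orange; open square, replicate 1) and S3_C library (purple), with the mean of 3 as a bar. S1 replicate 1 lies among the S3_C libraries for LHCA4, PSBQ, GAPB and SEN1, and between S1 replicates 2 and 3 and all of S3_C for ACD1, ATGSR1, GAMMA-VPE, Bo7g104500, SUS3 and ATBCA3.

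The largest single changes of the reduced fit, among described genes whose groups were also apart over all 6 libraries, included genes outside the classes described so far. PRXR1, a peroxidase, had 19.8, 504 and 495 FPKM in S1 and 5.50, 0.187 and 3.63 in S3_C (log2 difference -5.72, SE 1.66, limma adjusted p = 0.213, reduced fit -7.25, SE 1.60 with adjusted p = 0.0137). The fatty acyl-CoA reductase Bo3g016880, of an enzyme family that makes the alcohols of wax and suberin, had 1.35, 202 and 61.2 against 0.1003, 0.439 and 1.01. ATCAD9, described as a cinnamyl alcohol dehydrogenase, had 10.0, 163 and 157 against 3.98, 1.46 and 4.73. In these 3 genes S1 replicate 1 was a small fraction of S1 replicates 2 and 3 and still above every S3_C library. The malate transporter family entry Bo7g014450 had 8.93, 76.7 and 51.6 against 0.700, 0.350 and 3.88 FPKM, also with S1 replicate 1 above S3_C.

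Among those with higher values in S3_C was ATBCA3, a carbonic anhydrase, with 4.93, 0 and 0.1001 FPKM in S1 and 17.3, 201 and 69.3 in S3_C. The superoxide dismutase entry Bo7g109980, of an enzyme that removes superoxide, had 0.205, 0 and 0.0452 against 35.6, 61.1 and 16.9. Here all 3 S1 libraries were near 0 and S1 replicate 1 stood with its group (log2 difference 4.99, SE 1.26, limma adjusted p = 0.213, reduced fit 5.07, SE 1.47 with adjusted p = 0.0339). YSL3, a carrier of metal chelates that serves their export from ageing leaves in Arabidopsis, had 65.3, 7.99 and 5.76 against 66.3, 149.5 and 101. The cystatin family entry Bo3g003170, of protease inhibitors, had 3.45, 0.865 and 0.583 against 8.24, 91.5 and 33.0, and the oleosin Bo8g050570, a coat protein of lipid droplets, 31.6, 2.87 and 1.18 against 54.3, 78.8 and 45.8. S1 replicate 1 lay close below S3_C for YSL3 and Bo8g050570.

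Markers of other tissues were checked because S1 is a whole leaf and S3_C a part of one. All 3 tested vascular genes had lower means in S3_C: the xylem protease XCP1 had 0.460, 5.67 and 2.87 FPKM in S1 and 0.360, 0.396 and 0.454 in S3_C, without overlap, and the secondary wall cellulose synthases CESA4 and CESA8 had 0.676, 1.61 and 2.099 against 0.490, 0.467 and 1.35, and 0.158, 1.13 and 1.35 against 0.106, 0.247 and 0.543. None passed in either fit. STOMAGEN, from the stomatal lineage list, had 8.54, 9.67 and 9.74 against 14.1, 7.58 and 4.84 FPKM and overlapped. Its log2 difference of -0.18 (SE 0.32) turned to 0.05 with median-of-ratios scaling. The epidermal marker GL2 reached at most 0.483 FPKM, the stomatal lineage genes EPF1, EPF2 and TMM at most 0.708, and the meristem gene STM at most 0.0421 in the 6 libraries, all below the filter. The lists named 11 vascular, 6 epidermal, 7 stomatal and 5 meristem genes, to which 3, 1, 4 and 1 entries were matched. No epidermal or meristem marker was thus tested. STOMAGEN was the 1 tested entry of the stomatal lineage list, and whether it marks cells of that lineage was not tested. The part of tissue makeup in the results above was not tested.

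Among 5 genes of leaf growth and patterning, 5 had a lower mean in S3_C (median -0.26, -0.06 with median-of-ratios scaling and -0.36 in the reduced fit) and 0 passed in either fit. The abaxial regulator YAB5 had 8.32, 36.1 and 39.0 FPKM in S1 and 5.79, 1.91 and 24.0 in S3_C. Of 5 clock genes 4 had a higher mean (median 0.18, reduced fit 0.37) and 0 passed, with GI at 27.6, 21.6 and 18.0 against 24.5, 21.5 and 28.7 FPKM. Both tested glucosinolate genes fell in the reduced fit (100%, beside 16.6% of all genes), and both overlapped over the 6 libraries. The list named 22 Arabidopsis genes, to which 6 entries were matched and 2 of these tested. CYP83A1, a cytochrome P450 of aliphatic glucosinolate synthesis in Arabidopsis, had 0.0602, 23.5 and 9.76 against 1.85, 0.398 and 1.42 FPKM, and the myrosinase entry Bo2g155820;Bo2g155870;Bo2g155840, which names 3 genes, 1.71, 27.2 and 40.3 against 5.27, 0.664 and 3.65 (limma adjusted p = 0.00643 and 0.0147). S1 replicate 1 lay below all of S3_C for CYP83A1 and within its range for the myrosinase entry.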

How the data were processed

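Poly(A) RNA of 12 leaf samples was sequenced in paired ends (Illumina HiSeq), per the labels' protocols. The authors deposited FPKM per gene and library, with 45714 entries. Bowtie 0.12.2, HISAT2 2.0 and StringTie 1.3.0 appear in the submitters' processing notes, which state no role for them. No positions or sequences are printed, the genome build being not given in the sources used here. Without read counts the absolute depth is unknown. A value of 0 does not show that a transcript was absent, and no fold is given against a group at 0.

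The 27272 entries that reached 1 FPKM in 3 or more libraries were put on the log2(FPKM + 1) scale from the deposited FPKM, with a pseudocount of 1, which understates changes of low genes. Limma 3.58.1 in R 4.3.3 fitted the 4 group means over all 12 libraries, with a two-sided moderated test, eBayes with a trend, and Benjamini-Hochberg adjustment over all tested genes. The fit was tested on simulated data. Noise there was drawn for each gene on its own, with no library set apart across genes. The simulation thus cannot show how the fit behaves with S1 replicate 1. Of 7917 entries with an Arabidopsis identifier, 10982 with a product description and 22692 with ontology terms, 2090 matched 1 of 41 gene classes and 1493 of these were tested, 49 of them in more than 1 class. Classes are described by counts and medians beside those of all genes, with no test of the class. A pair of groups does not overlap when every value of one lies above every value of the other.

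Members and classes were chosen with earlier results of these data known. The rule for named genes took, per class, up to 2 members in each direction with no overlap and 5 FPKM or more on average in the higher group, and the most abundant member. Over all genes it took the called genes and up to 10 in each direction from the reduced fit. It gave 104 genes, and 76 further genes were chosen after their values were seen. Settings tried were other pseudocounts, filters and scalings, the 6 libraries alone, a replicate block, no trend, array weights and each library left out.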

Additional observations from a re-analysis of the deposited data

How the results depend on the processing

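The count with all libraries was 0 higher and 2 lower. It was 3 and 1 with no filter, 0 and 0 with at least 5 FPKM in at least 3 libraries, and 1 and 1 with only the 6 libraries. Array weights gave 3570 and 8725, with a weight of 0.187 for S1 replicate 1 and 9.509 for S2 replicate 2, in a weight fit that stopped before it converged. Without 1 library at a time the counts ranged from 0 to 1747 higher and from 1 to 4540 lower, the upper ends without S1 replicate 1 and, among the others, at most 5 and 4. Without S1 replicate 1 and S3_S replicate 3 they were 1932 and 4920. Whether equal replicate numbers pair the samples is not known, as the labels give no shared plant. Deviations from the group means correlated at -0.008, -0.24 and 0.163 for equal numbers and at -0.212 to 0.215 for unlike numbers. These correlations cannot decide it, since the 3 deviations of a group sum to 0 and S1 replicate 1 stood apart. With the number as a replicate block, 0 genes were higher and 1 lower, and in the 6 libraries alone 0 and 0. In the reduced fit the block, chosen later, gave 1321 and 3415, and at least 5 FPKM gave 2789 lower. With a further library of the 2 groups left out the reduced counts ranged from 112 to 2029 higher and from 249 to 6054 lower. The cause of these moves was not tested.

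Of the 180 named genes, 4 turned direction with median-of-ratios scaling: ATXPD (0.053), Bo7g117020 (0.034), the SWEET entry Bo8g077260 (0.105) and STOMAGEN (0.053). Bo8g077260 also turned with array weights (0.287), without S1 replicate 1 (0.43, with or without S3_S replicate 3) and without S3_C replicate 2 (0.21), over a range from -0.56 to 0.43 without 1 library at a time, and STOMAGEN with array weights (0.16) and without S3_C replicate 3 (0.14), over a range from -0.54 to 0.14. Neither passed in any of these fits. Without S1 replicate 1, 119 named genes came to pass, beside 6.41% of all tested genes that rose and 16.6% that fell. This count follows in part from the choice of genes. The rule took some because they passed that fit, and others were chosen after their values were seen. Low FPKM values carry the most error, and without counts that error has no interval.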

Other observations

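Of 89 tested cold and water-deficit genes, 45 had a higher and 44 a lower mean in S3_C (median 0.01, reduced fit -0.05). The groups were apart in 9 with the higher values in S3_C (10.1%, beside 5.28% of all genes) and 3 with the lower (3.37%, beside 10.1%), and in the reduced fit 10 rose and 10 fell (11.2% each, beside 6.41% and 16.6%). The iron store gene ATFER1 had 406, 578 and 541 FPKM in S1 and 200.1, 382 and 402 in S3_C, lower without overlap. Of 43 heat shock genes, 26 had a lower mean (median -0.12, 0.13 with median-of-ratios scaling and -0.12 in the reduced fit). Of these 43, 5 were higher without overlap (11.6%, beside 5.28%) and 2 lower (4.65%, beside 10.1%), and in the reduced fit 1 rose (2.33%, beside 6.41%) and 8 fell (18.6%, beside 16.6%). Of 52 peroxidase and related genes, 24 had a higher and 28 a lower mean, and 8 rose (15.4%, beside 6.41%) and 11 fell (21.2%, beside 16.6%) in the reduced fit (median -0.10). Bo5g005370 had 5.35, 27.0 and 30.0 FPKM in S1 and 1.88, 0.356 and 1.12 in S3_C, while the glutathione peroxidase Bo9g092640 had 79.4, 70.9 and 50.5 against 81.4, 165 and 143, both without overlap.

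Of 52 tricarboxylic acid cycle genes, 25 had a higher and 27 a lower mean, 7 were higher without overlap (13.5%, beside 5.28% of all genes) and 2 lower (3.85%, beside 10.1%), and in the reduced fit 5 rose (9.62%, beside 6.41%) and 6 fell (11.5%, beside 16.6%). The NADP-dependent isocitrate dehydrogenase Bo6g099590 had 164, 56.6 and 90.7 FPKM in S1 and 263, 513 and 181 in S3_C, and CSY3, a citrate synthase, 53.0, 38.7 and 32.1 against 65.2, 155 and 74.6, both higher without overlap. PMDH2, a peroxisomal malate dehydrogenase, had 41.5, 2.08 and 3.66 against 48.6, 29.6 and 11.2. Of 69 glycolysis genes, 43 had a lower mean, and 7 rose (10.1%, beside 6.41%) and 14 fell (20.3%, beside 16.6%) in the reduced fit (median -0.39). Of 50 proteasome genes, which degrade tagged proteins, 47 had a lower mean (median -0.29, and -0.05 with median-of-ratios scaling, beside -0.18 and 0.01 for all genes), and 14 fell (28%, beside 16.6%) and 0 rose in the reduced fit (median -0.59). The beta subunit Bo7g115030 had 27.7, 29.5 and 34.0 against 19.2, 11.1 and 18.6 FPKM, lower without overlap.

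Among 8 aquaporins the median difference was 0.12 with 5 higher means, and -0.17 with 5 lower means in the reduced fit. The plasma membrane channels PIP1B and PIP1A were higher in S3_C without overlap (25%, beside 5.28% of all genes), with 238, 141 and 201 against 250.2, 362 and 282 FPKM for PIP1B and 4.06, 3.80 and 3.16 against 8.98, 7.16 and 5.04 for PIP1A, and did not pass in either fit. The vacuolar TIP4 had 0.680, 5.68 and 4.27 against 0.854, 0.200 and 1.65 and fell in the reduced fit (limma adjusted p = 0.0314). Of 69 auxin signaling genes, 44 had a lower mean (median -0.16), 7 were lower without overlap (10.1%, the same share as all genes), and 4 rose (5.80%, beside 6.41%) and 9 fell (13%, beside 16.6%) in the reduced fit (median -0.31). The auxin response factor ARF8, which limits organ growth in Arabidopsis, had 9.20, 18.9 and 14.9 against 5.30, 4.12 and 9.05 FPKM, lower without overlap. OPR3, of jasmonate synthesis, had 10.9, 45.8 and 14.4 against 9.09, 12.8 and 15.7 and overlapped. Of 10 photorespiration genes, 7 had a higher mean (median 0.21), and 0 rose (0%, beside 6.41%) and 1 fell (10%, beside 16.6%) in the reduced fit.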
